A study of Mus musculus with 3 samples.

Results

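The transcripts of 7 myeloid transcription factors were followed in the leukocytes of mouse mammary tumors: the CCAAT/enhancer binding proteins C/EBPα (Cebpa), C/EBPβ (Cebpb), C/EBPδ (Cebpd) and C/EBPε (Cebpe), PU.1 (Spi1), IRF8 (Irf8) and KLF4 (Klf4). They were taken by symbol from the 32285 genes of the count tables, and all 7 were present in each of the 3 libraries. Single-cell RNA sequencing had been run on live CD45+ cells (CD45 marks all leukocytes) sorted from tumors of 4T1-luc, a luciferase-expressing BALB/c mammary carcinoma line. The tumors grew in the mammary fat pad of female BALB/c mice of 6 to 8 weeks, each implanted with 200000 cells, and were collected on day 14. In the vehicle library the tumors were p38α wild type and the mice received DPBS for 10 days from day 4. In the p38i library the same wild-type tumors were treated over the same days with the p38 inhibitor LY2228820 at 30 mg/kg daily by gavage. In the p38KO library the implanted cells were p38a-KO-H9, 4T1-luc cells whose p38α gene had been inactivated by CRISPR-Cas9, with no inhibitor. H9 is 1 clone, and the knockout is in the tumor cells only, so the leukocytes of that library carry intact p38α. Each library is 1 pool of tumors from 3 mice, so no comparison between libraries has a replicate, no p-value is given, and library batch and condition cannot be told apart. All intervals are 95% intervals and cover counting error only.

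C/EBP proteins are leucine zipper factors that pair with each other and with related factors. C/EBPα acts at the entry into the granulocyte and monocyte lineage, C/EBPε drives the secondary granule genes of maturing neutrophils, and C/EBPβ and C/EBPδ are induced by cytokines and growth factors, C/EBPβ being a driver of emergency granulopoiesis. PU.1 is the ETS factor that sets the general myeloid program and its growth factor receptors. IRF8 partners with PU.1, restrains the granulocyte fate and is required for type 1 conventional dendritic cells (cDC1), and KLF4 promotes monocyte differentiation.

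On GRCm38 with GENCODE M21 annotation, Cebpb is at chr2:167688915-167690418 and Cebpd at chr16:15887286-15891031, both single-exon genes on the + strand. Cebpa is at chr7:35119293-35121928, Spi1 at chr2:91082390-91115756 and Irf8 at chr8:120736358-120756694, also on the + strand. Cebpe, at chr14:54710360-54712174, and Klf4, at chr4:55527143-55532466, are on the - strand. Some members overlap other annotated genes. The annotation of Tmem189 covers 908 bases of Cebpb on the opposite strand, that of Spidr covers 1808 bases of Cebpd on the opposite strand, and an antisense RNA, Gm45091, covers 313 bases of Cebpa. How strand was used in counting is not given in the sources used here, so the values of these 3 members are uncertain to the extent that reads were shared.

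The promoters of Cebpb, highest in neutrophils, and Irf8, highest in dendritic cells, are shown first because these members peaked in different gates and their promoters carry different motifs. Cebpd, which separated neutrophils from the next gate by more, was not in the promoter table. Each line gives the 250 bases before a RefSeq start on GRCm38.p6, + strand, 5′ to 3′. Capitals in Cebpb mark the cAMP response element half-site TGACG on either strand, and capitals in Irf8 mark the STAT motif TTCNNNGAA.

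Cebpb, chr2:167688665-167688914: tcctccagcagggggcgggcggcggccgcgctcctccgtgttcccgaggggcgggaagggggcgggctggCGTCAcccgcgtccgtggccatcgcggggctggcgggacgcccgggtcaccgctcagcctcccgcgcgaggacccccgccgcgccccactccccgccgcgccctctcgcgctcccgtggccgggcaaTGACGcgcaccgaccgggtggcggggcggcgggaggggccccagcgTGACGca

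Irf8, chr8:120736108-120736357: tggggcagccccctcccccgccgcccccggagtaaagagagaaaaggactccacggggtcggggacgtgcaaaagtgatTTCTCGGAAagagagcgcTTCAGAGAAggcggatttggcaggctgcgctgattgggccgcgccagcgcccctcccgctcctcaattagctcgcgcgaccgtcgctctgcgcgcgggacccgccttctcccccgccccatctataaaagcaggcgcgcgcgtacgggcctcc

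The 3 half-sites of Cebpb start 180, 53 and 7 bases before the transcript start, and the 2 STAT motifs of Irf8 start 171 and 153 bases before it. Of 32851 promoters of this length, 17.8% hold TGACG and 7.02% hold TTCNNNGAA. The table of promoters held 4 of the 7 members. In the others, Klf4 had 1 TGACG at 232 bases, and the Cebpa promoter had a TATAAA box at 30 bases. The Irf8 window shown also had a CCAAT box at 121 bases and TATAAA at 31 bases (33.8% and 12.4% of promoters). Another RefSeq start of Irf8, with the window chr8:120738389-120738638, had none of the motifs searched. The letters searched for C/EBP (TTNNGNAA) and PU.1 (GAGGAA) sites, present in 36.8% and 23.3% of promoters, did not occur in these windows, which says nothing about binding of either factor. These matches are descriptions of sequence only.

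The files held 4588, 6343 and 5212 barcodes for vehicle, p38i and p38KO, of which 3820, 4793 and 3859 passed the filters. The kept cells held 20795195 to 24374173 UMIs a library, with medians of 3038 to 3317 UMIs per cell. Libraries shared 5 to 9 barcodes pairwise. Cells were gated by raw counts of genes outside the member list: Csf3r and Cxcr2 for neutrophils, Ly6c2 and Fn1 for monocytes, C1qa for macrophages, Flt3 for dendritic cells (DC) and Cd3e for T cells as a contrast. In the order vehicle, p38i and p38KO, the neutrophil gate held 1755, 2080 and 1543 cells, the monocyte gate 387, 666 and 312, the macrophage gate 209, 202 and 663, the DC gate 41, 78 and 71, and the T gate 481, 599 and 418. The macrophage gate took 5.47%, 4.21% and 17.2% of the kept cells. In the neutrophil gate the summed level of 8 neutrophil markers was 147891 to 211986 counts per 1000000 UMIs of the gate (CPM), against 522 to 597 CPM in the T gate. Likewise 8 monocyte markers summed to 6717 to 8659 CPM, 8 macrophage markers to 22477 to 34728 CPM and 9 DC markers to 1745 to 2318 CPM in the gates of that name, with no marker at 0. These marker lists include the genes that set the gates, and T-gate cells were required to lack Csf3r and Cxcr2. The sums are therefore in part fixed by the gating and are no independent check of it. Mapk14, the p38α gene, was present at 33.7, 42.1 and 39.1 CPM over all kept leukocytes, which does not test the knockout label since only tumor cells were edited.

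Cebpb was highest in the neutrophil gate in each library. Summed over the gate, its level was 6795 CPM in vehicle (6726 to 6866), 4937 CPM in p38i (4883 to 4993) and 5488 CPM in p38KO (5416 to 5560.3). Monocytes followed with 2922, 2397 and 2524 CPM, macrophages with 1058, 654 and 703 CPM, and the DC gate with 209, 187 and 80.1 CPM. The T gate held 93.4, 172 and 87.9 CPM. The intervals of the ratio between neighbours in this order left out 0 on the log2 scale for neutrophils, monocytes and macrophages in each library, whereas DC and T were not resolved in p38i or p38KO.

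Cebpb was close to universal in neutrophils. After every cell was thinned to 1500 UMIs, 98.6%, 96.7% and 97.6% of neutrophils in vehicle, p38i and p38KO carried at least 1 Cebpb UMI (exact Clopper-Pearson intervals of 97.9% to 99.1%, 95.9% to 97.5% and 96.7% to 98.3%), and the median cell carried 9, 7 and 7. Before thinning the shares were 99.4%, 98.4% and 98.5%. The 10th to 90th percentiles ran from 3 to 20, 2 to 16 and 2 to 17 UMIs. In monocytes 93.8%, 90.1% and 89.1% were positive, with medians of 4, 3 and 3 UMIs. In macrophages 70.3%, 59.4% and 56.4% were positive with a median of 1 UMI in each library. The macrophage intervals were 63.6% to 76.4%, 52.3% to 66.2% and 52.5% to 60.2%, so the vehicle share overlapped p38i and lay above p38KO. The T gate, used as a contrast, had 13.5%, 11% and 13.4% positive cells at median depths of 3958 to 5043 UMIs before thinning. The DC gate had 24.4% (12.4% to 40.3%), 17.9% (10.2% to 28.3%) and 8.45% (3.16% to 17.5%) at 8639 to 13202. The p38KO DC share did not exceed the T share, so it does not stand above this contrast. Whether the T share is background was not tested.

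**Figure D1:**
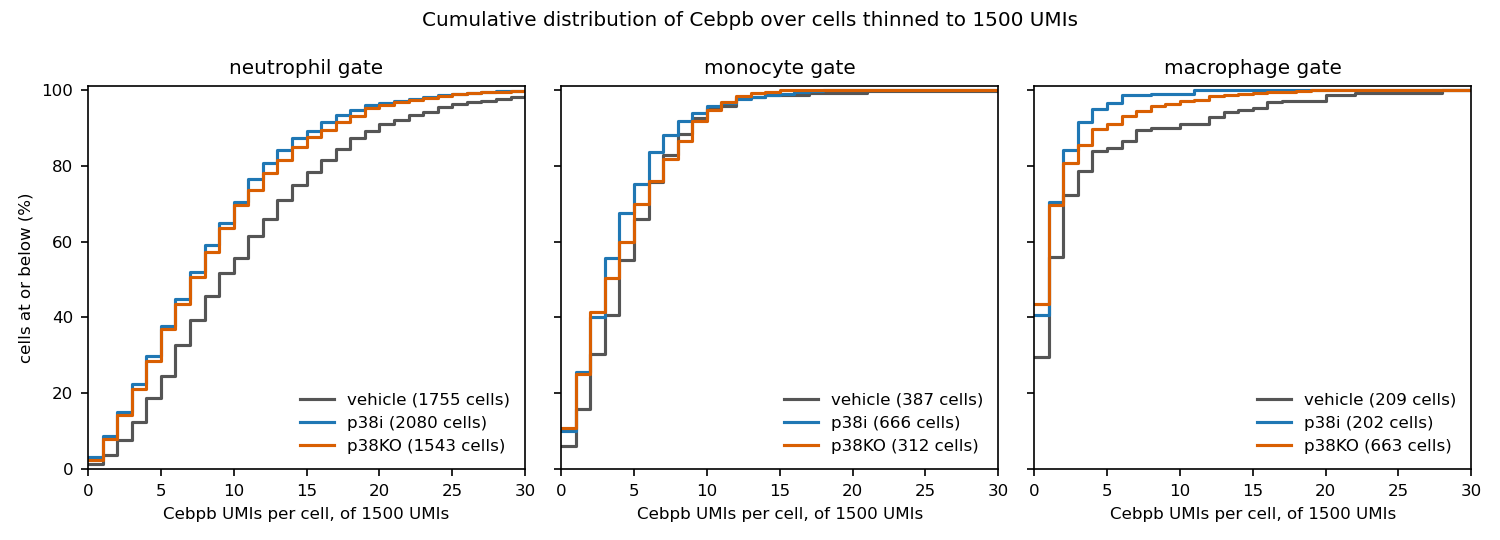
Cebpb UMIs per cell after thinning to 1500 UMIs, as the cumulative share of cells (y axis, %) at or below each count (x axis) in the neutrophil, monocyte and macrophage gates, with 1 line per library. The neutrophil lines cross 50% at medians of 9, 7 and 7 UMIs in vehicle, p38i and p38KO, and the macrophage lines at 1.

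Cebpd was also highest in neutrophils, at 448, 342 and 469 CPM in vehicle, p38i and p38KO. Neutrophils exceeded the next gate by log2 ratios of 2.80, 2.19 and 2.51, against 1.22, 1.04 and 1.12 for Cebpb. Monocytes held 60.6, 74.9 and 82.1 CPM and macrophages 64.2, 63.8 and 78.4 CPM, a pair that was not resolved in any library. The DC gate held 35.1, 37.9 and 23.6 CPM and the T gate 2.36 to 4.11 CPM. After thinning, 39.4% (37.1% to 41.7%), 32.9% (30.9% to 35%) and 39.4% (37% to 41.9%) of neutrophils had a Cebpd UMI. The p38i neutrophils were the lowest of the 3 libraries for this gene.

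Cebpa showed the opposite distribution, with its highest level in macrophages (60.9, 60.6 and 79.6 CPM), then monocytes (42.7, 41.7 and 55.6 CPM). The DC gate (9.24, 12.2 and 9.24 CPM) and neutrophils (4.28, 5.57 and 7.67 CPM) followed and were not resolved from each other in any library. The T gate held at most 1.71 CPM. Thus the C/EBP gene of early progenitors was, among these mature populations, a macrophage and monocyte transcript.

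Cebpe was low in each gate and highest in monocytes, at 21.9, 27.6 and 19.6 CPM, ahead of neutrophils at 8.00, 12.4 and 8.17 CPM. Macrophages held 2.34 to 3.30 CPM. In the DC gate the gene had 0 counts in vehicle and p38KO, where 3 counts correspond to 5.54 and 3.08 CPM, and 2.45 CPM in p38i. Few cells carried it: 33, 52 and 31 neutrophils and 58, 94 and 39 monocytes had at least 1 UMI, and 59.6% to 93.5% of these had exactly 1.

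The granule genes of cells with Cebpe differed by gate and by library. In vehicle, neutrophils with a Cebpe UMI held the secondary granule gene Ngp at 10781 CPM against 105 CPM in the remaining neutrophils, and in p38i at 9017 against 269 CPM. In p38KO the 31 neutrophils with Cebpe held 0 Ngp counts, against 35.9 CPM in the others. On these few cells, the excess of vehicle and p38i was not seen in p38KO. In monocytes with a Cebpe UMI, Ngp was at 0, 256 and 0 CPM in vehicle, p38i and p38KO. In monocytes without a Cebpe UMI it was at 56.6, 0.638 and 0.428 CPM. The monocyte gate held 174, 266 and 1 Ngp counts in all, and the number of cells that held them is not given. No direction is therefore read from the Ngp values of monocytes. S100a9 is a calcium-binding protein abundant in granulocytes and monocytes. It was at 4318, 6289.5 and 3717 CPM in monocytes with a Cebpe UMI against 3018, 3358 and 951 CPM in those without. Cells with a Cebpe UMI in the monocyte gate were deeper (medians of 9095 to 10573 against 7642 to 8893 UMIs), and the part of depth in these differences was not tested.

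Spi1 was present in each of the 4 myeloid gates and close to absent in the T gate. Neutrophils held 621, 549 and 671 CPM, monocytes 479, 425 and 449 CPM, macrophages 352, 333 and 356 CPM and the DC gate 237, 275 and 297 CPM in vehicle, p38i and p38KO. The T gate held 7.08, 19.2 and 3.19 CPM. The order of the 4 myeloid gates was the same in each library. After thinning, 54.9%, 52.1% and 56.3% of neutrophils and 0.718% to 1.04% of T cells had a Spi1 UMI.

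Irf8 ran nearly the reverse course. The DC gate held 2459.7 CPM in vehicle (2329 to 2595), 2034 CPM in p38i (1938 to 2135) and 2499 CPM in p38KO (2401 to 2600.3). Monocytes (366, 361 and 412 CPM) and macrophages (382, 358 and 374 CPM) were not resolved from each other in vehicle and p38i. The T gate held 157, 138 and 82.5 CPM, and neutrophils were last with 30.5, 33.4 and 35.9 CPM. In thinned cells 80.5% (65.1% to 91.2%), 74.4% (63.2% to 83.6%) and 78.9% (67.6% to 87.7%) of the DC gate carried an Irf8 UMI. Among neutrophils the shares were 1.42%, 1.68% and 2.98%. Thus the gate highest in Cebpb was the lowest in Irf8 in each library.

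Klf4 was shared between the DC gate (103, 84.5 and 34.9 CPM) and monocytes (103, 66.0 and 80.7 CPM). The gates were not resolved in vehicle and p38i, and monocytes were higher in p38KO. Macrophages held 25.3, 26.2 and 18.0 CPM, neutrophils 11.1 to 13 CPM and the T gate 3.64 to 5.73 CPM. The highest gate of Klf4 was thus unresolved in vehicle and p38i, so a change of highest gate between libraries is not shown. The other 6 of 7 had the same highest gate in each library. The share of all genes that do so is not given.

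**Figure D2:**
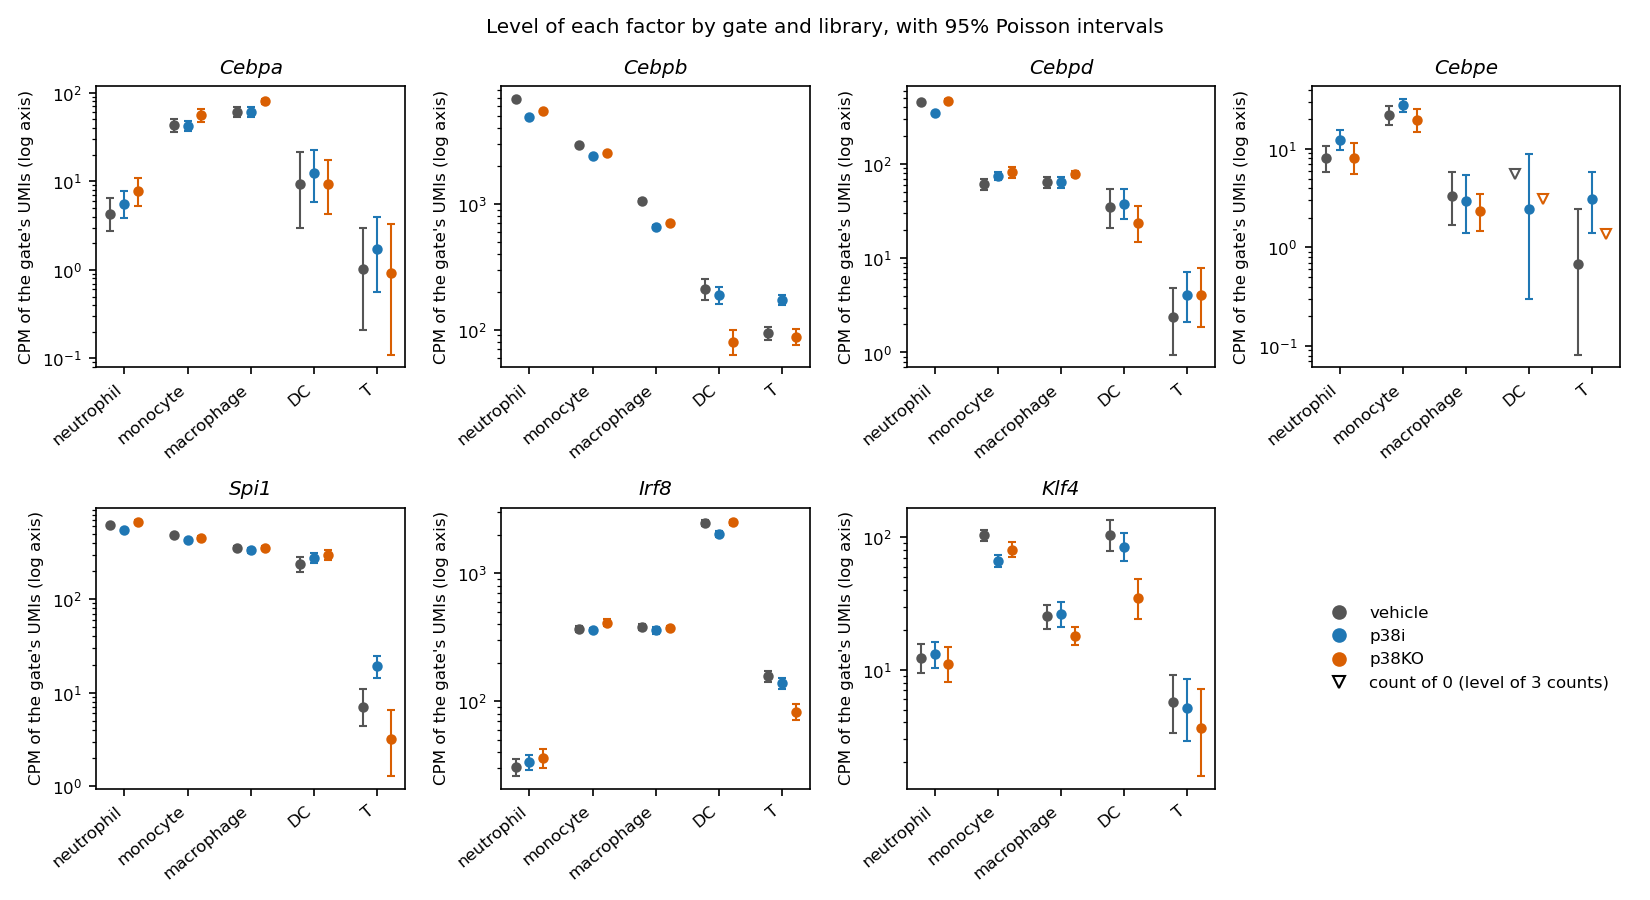
Level of each of the 7 genes (CPM of the gate's summed UMIs, log axis) in the 5 gates for vehicle, p38i and p38KO, with 95% Poisson intervals. Open triangles mark a count of 0, drawn at the level of 3 counts. Cebpb, Cebpd and Spi1 peak in neutrophils, Cebpa in macrophages, Cebpe in monocytes and Irf8 in the DC gate.

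The first comparison asked how the members differed in p38i, where the inhibitor reached tumor and host cells, against vehicle. Across the 4 myeloid gates, 3 of the 26 values with enough counts were called, 1 higher and 2 lower. A value was called when the log2 ratio was at least 0.5 either way, its interval left out 0 and both libraries together had at least 20 counts. Of all genes so tested, 12.2% were called in the neutrophil gate, 6.58% in the monocyte gate, 7.31% in the macrophage gate and 8.95% in the DC gate, so the members' count was near the background. Cebpb was lower in macrophages (-0.69, interval -0.77 to -0.62, but -0.46 and not called in cells positive for 1 gate only), Klf4 was lower in monocytes (-0.65, -0.85 to -0.44), and Cebpe was higher in neutrophils (0.63, 0.08 to 1.21). The Cebpe call rested on 78 against 43 counts, and 1 p38i neutrophil held 14 of the 78. Without the cell with the most Cebpe UMIs in each library, a check chosen after seeing the data, the log2 ratio was 0.46 (-0.14 to 1.06) and was not called. The macrophage gate held 8 neutrophil markers at a summed 6835, 2475 and 4589 CPM in vehicle, p38i and p38KO, with 0 of the 8 at 0. Their part in the macrophage Cebpb values of p38i and p38KO was not tested. The monocyte gate held the same markers at 6498, 8132 and 3321 CPM, also with 0 at 0. The DC gate held 8 monocyte markers at 3598, 3273 and 2763 CPM, with 1, 0 and 2 of the 8 at 0. The part of these markers' cells in the monocyte and DC values of either comparison was not tested.

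Cebpb in p38i neutrophils was below vehicle by a margin just short of the call, with a log2 ratio of -0.46 (-0.48 to -0.44). The median gene of the neutrophil gate had a log2 ratio of 0.12 in either comparison, and relative to it Cebpb was at -0.58 in p38i and -0.43 in p38KO. In monocytes Cebpb was at -0.29 and in the DC gate at -0.16 (-0.52 to 0.21). Cebpd was at -0.39 in neutrophils, -0.50 relative to the median gene, and at 0.31, -0.01 and 0.11 in monocytes, macrophages and the DC gate. Spi1 lay between -0.18 and 0.22 in the 4 gates, and Irf8 between -0.27 (-0.38 to -0.17, DC gate) and 0.13. Cebpa was at 0.38 in neutrophils and within 0.03 of 0 in monocytes and macrophages. Cebpe was at 0.33 in monocytes and -0.17 in macrophages, and Klf4 at 0.09, 0.05 and -0.29 in neutrophils, macrophages and the DC gate. None of these values was called. Some moved with the gating. In cells positive for 1 gate only, Klf4 was at -1.68 in macrophages and -1.18 in the DC gate and Irf8 at -0.51 and -0.64 there, all called. That setting held only 63 and 40 macrophages and 17 and 32 DC in vehicle and p38i. With stricter gates, which held 25 and 38 DC, Cebpb in the DC gate was at -0.83 and called.

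The second comparison asked how the members differed when p38α was lacking in the tumor cells alone. In p38KO against vehicle 4 of 26 values were called, 1 higher and 3 lower. The background was 13% of genes called in the neutrophil gate, 10.3% in the monocyte gate, 12.6% in the macrophage gate and 10% in the DC gate, so this count too was near it. Cebpb was lower in macrophages (-0.59, -0.65 to -0.53) and in the DC gate (-1.38, -1.82 to -0.95), and Klf4 was lower in the DC gate (-1.57, -2.23 to -0.93). Cebpa was higher in neutrophils (0.84, 0.02 to 1.69), on 31 against 23 counts.

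The neutrophil gate also held genes of other cells. The summed level of 6 mast cell and basophil genes in the neutrophil gate was 4.65, 40.2 and 115 CPM in vehicle, p38i and p38KO, with 1, 1 and 0 of the 6 at 0. In neutrophils with none of these genes, a check chosen after seeing the data, the Cebpa log2 ratio was 0.15 (-0.85 to 1.13), on 17 against 22 counts. This interval includes the 0.84 of the whole gate, so these ratios were not resolved from each other. Of 8 macrophage markers, 7 were also higher in p38KO neutrophils than in vehicle. Their part in the Cebpa value was not tested. In macrophages Cebpa was at 0.39 and in monocytes at 0.38, neither called, and in macrophages without mast cell or basophil genes it was at 0.41.

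The DC gate was small, and its Cebpb and Klf4 counts were concentrated in few cells. Of 113, 153 and 78 Cebpb UMIs in vehicle, p38i and p38KO, 1 cell held 44, 48 and 23. Of 56, 69 and 34 Klf4 UMIs, 1 cell held 14, 14 and 4. Without the cell with the most UMIs in each library, the p38KO log2 ratios were -1.20 (-1.74 to -0.67) for Cebpb and -1.33 (-2.05 to -0.62) for Klf4, and both were still called. After thinning every cell to 1500 UMIs they were at -1.11 and -2.38 and neither was called. Without the highest cell of each library, Cebpb in p38i was at 0.01 (-0.44 to 0.47).

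The other p38KO values were not called. Cebpb was at -0.31 in neutrophils and -0.21 in monocytes, and Cebpd at 0.07, 0.44, 0.29 and -0.57 in neutrophils, monocytes, macrophages and the DC gate. Spi1 lay between -0.09 and 0.33 and Irf8 between -0.03 and 0.24. Klf4 was at -0.14 in neutrophils, -0.36 in monocytes and -0.49 in macrophages. Cebpe was at 0.03 in neutrophils, -0.16 in monocytes and -0.50 in macrophages. Both comparisons use the same vehicle library, so a level particular to that library would enter both. The summed level of 5 epithelial genes, used as tumor cell markers, also differed. In vehicle, p38i and p38KO it was 5.61, 4.37 and 165 CPM in monocytes and 10.0, 3.98 and 143 CPM in neutrophils. In macrophages it was 3.86, 8.83 and 7.95 CPM. The part of these genes' cells in the p38KO values was not tested.

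**Figure D3:**
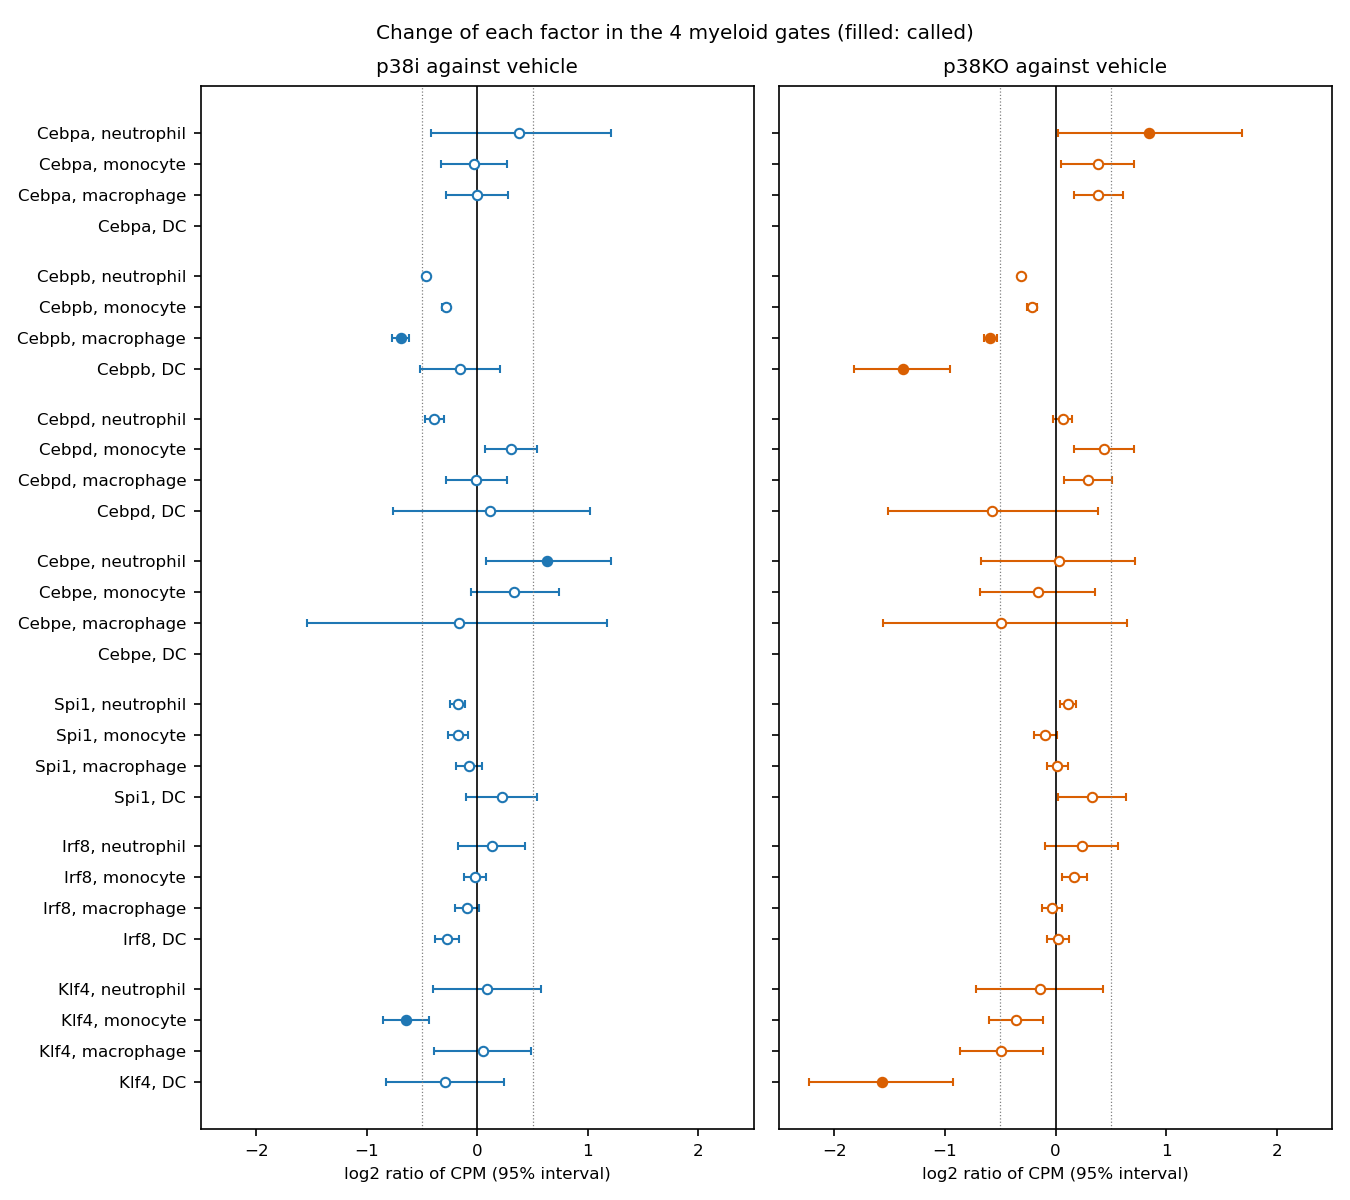
Log2 ratio of each gene against vehicle (x axis) in the 4 myeloid gates for p38i and p38KO, with exact 95% intervals, filled symbols where called and dotted lines at 0.5 either way. Cebpa and Cebpe in the DC gate had too few counts and are not drawn. Cebpb in macrophages lies at -0.69 and -0.59, and Cebpb and Klf4 in the p38KO DC gate lie at -1.38 and -1.57.

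The T gate was kept as a contrast. There 8.46% of all genes were called in p38i and 11.6% in p38KO. Cebpb and Spi1 were called higher in p38i (0.88, 0.67 to 1.10, and 1.44, 0.69 to 2.23), and Irf8 was called lower in p38KO (-0.92, -1.18 to -0.67). Other myeloid transcripts in the T gate moved both ways. In vehicle, p38i and p38KO, Lyz2, the lysozyme gene of myeloid cells, was at 94.1, 344 and 64.2 CPM and Il1b at 39.8, 89.4 and 55.6 CPM, whereas S100a8 was at 189, 172 and 161 CPM and S100a9 at 359, 268 and 272 CPM. The 10 cells with the most Cebpb UMIs held 33.9%, 59.6% and 25.4% of them, and the 10 with the most Spi1 UMIs held 90.5%, 87.5% and 100% of the 21, 56 and 7 counts. The part of myeloid RNA in these values was not tested beyond the check that follows. In T-gate cells with no Lyz2 UMI, a check chosen after seeing the data, the p38i ratios turned to -0.17 (-0.48 to 0.15) for Cebpb and -1.23 (-3.38 to 0.61) for Spi1. The latter rested on 4 against 9 counts, too few for the call. In p38KO, 1 T-gate cell held 33 of 181 Irf8 UMIs, and without the highest cell of each library the Irf8 ratio was -1.15 (-1.43 to -0.88).

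Genes listed for dissociation and stress also differed between libraries, and handling and treatment cannot be told apart as the source. The summed level of Fos, Jun, Egr1, Hspa1a, Hspa1b, Dusp1 and Ier2 was 4587, 2490.3 and 3665 CPM in neutrophils of vehicle, p38i and p38KO, 2708, 1489 and 1752 CPM in monocytes, 985, 587 and 737 CPM in macrophages and 1878, 853 and 807 CPM in the DC gate, with 0 of the 7 genes at 0 in any of them. It was highest in vehicle in each of these gates, as Cebpb was, and its part in the DC values was not tested. In cells with none of these genes among 1500 UMIs, a check chosen after seeing the data, Cebpb was at -0.74 and -0.37 in neutrophils, -0.06 and -0.04 in monocytes and -0.35 and -0.56 in macrophages for p38i and p38KO. Of these, the p38i neutrophil and p38KO macrophage values passed the call and the p38i macrophage value did not. In macrophages with at least 1 such UMI the ratios were -0.80 and -0.52. The check was run for Cebpb only. The part of these genes' difference in the values of other members, such as Klf4 in monocytes, was not tested.

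Neutrophils were then divided by genes outside the member list. Cells with at least 2 UMIs of the chemokines Ccl3 and Ccl4 and no Retnlg, a gene of circulating neutrophils, made up 20.5% of the vehicle gate, 16.8% of p38i and 29.2% of p38KO. Those with at least 2 Retnlg UMIs and no Ccl3 or Ccl4 made up 17.7%, 23.6% and 12.4%. Divisions by raw counts depend on depth, so these shares do too. Cebpb was at 7051, 6168 and 5668 CPM in the chemokine cells against 5407, 3875 and 4969 CPM in the Retnlg cells (log2 ratios of 0.38, 0.67 and 0.19). Cebpd went the other way, at 280, 205 and 249 CPM against 468, 409.8 and 715 CPM (-0.74 in vehicle and -1.52 in p38KO), and so did Spi1, at 478, 427 and 549 CPM against 695, 651 and 802 CPM (-0.54, -0.61 and -0.55). Between these divisions, Cebpb was thus higher in the chemokine cells and Cebpd in the Retnlg cells in each library. Neutrophils with neither or both signatures were not part of this contrast.

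Within these divisions the direction of the library differences held for Cebpb and was mixed for Cebpd. Cebpb was below vehicle in either division of p38i and p38KO. Cebpd was called higher in p38KO Retnlg cells (0.61), and was at 249 against 280 CPM in the chemokine cells, not called. In neutrophils with neither or both signatures, Cebpb (-0.50) and Cebpd (-0.53) were called lower in p38i. Other members were called on few counts. Irf8 was lower in p38i Retnlg cells (-1.64, 19 against 43 counts). Cebpa was higher in p38KO chemokine cells (1.61, 18 against 5 counts). The share of all genes called within divisions of a gate is not given, so calls here and in the divisions below have no background beside them.

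A few neutrophils, 37, 79 and 18 in vehicle, p38i and p38KO, held at least 2 UMIs of the granule genes Ngp, Camp and Ltf. Cebpb was lower in them, at 3059, 2584 and 3733 CPM, than in neutrophils with none, at 7044, 5251 and 5524 CPM (log2 ratios of -1.20, -1.02 and -0.57). Cebpe, the factor of granule maturation, was at 35.3 and 51.5 CPM in granule cells of vehicle and p38i against 6.68 and 8.44 CPM, and had 0 counts in the 18 granule cells of p38KO, whose interval reached 46.4 CPM and so included the 7.99 CPM of the cells with none.

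Monocytes were divided by Arg1, the arginase gene of suppressive myeloid cells, which had at least 1 UMI in 43.9%, 44.4% and 53.2% of the gate. Cebpd was at 28.8, 59.5 and 44.6 CPM in Arg1 monocytes of vehicle, p38i and p38KO against 86.1, 87.2 and 127 CPM in those without (log2 ratios of -1.58, -0.55 and -1.51). Klf4 was at 58.2, 46.9 and 69.8 CPM against 140.3, 81.3 and 93.7 CPM. Cebpe was higher with Arg1, at 30.6, 33.5 and 27.9 CPM against 14.9, 22.9 and 9.61 CPM. Cebpb and Spi1 differed less, Cebpb being at 3065, 2432 and 2698 CPM against 2808, 2369 and 2315 CPM.

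Against vehicle, Cebpd was called higher in Arg1 monocytes of p38i (1.05) and p38KO (0.63) and in p38KO monocytes without Arg1 (0.56), and Klf4 was called lower in monocytes without Arg1 in both (-0.78 and -0.57). In p38i Arg1 monocytes Klf4 was not called.

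Macrophages with at least 1 UMI of the cycling genes Mki67 and Top2a were 27.8%, 23.8% and 31.8% of the gate, and were deeper (medians of 18633 to 28190 against 9482 to 14987 UMIs). Cebpb was lower in cycling macrophages, at 732, 471 and 484 CPM against 1328, 745 and 893 CPM (log2 ratios of -0.86, -0.66 and -0.89). Cebpa (-0.89, -0.71 and -0.49) and Klf4 (-0.92, -3.40 and -1.49) were lower too, whereas Spi1 differed by at most 0.16 either way. The p38i Klf4 value rested on 4 counts in cycling macrophages against 85 in the others (interval -5.31 to -1.99). Cebpb against vehicle was called lower in both divisions of both libraries, at -0.63 and -0.60 in cycling and -0.83 and -0.57 in other macrophages for p38i and p38KO.

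**Figure D4:**
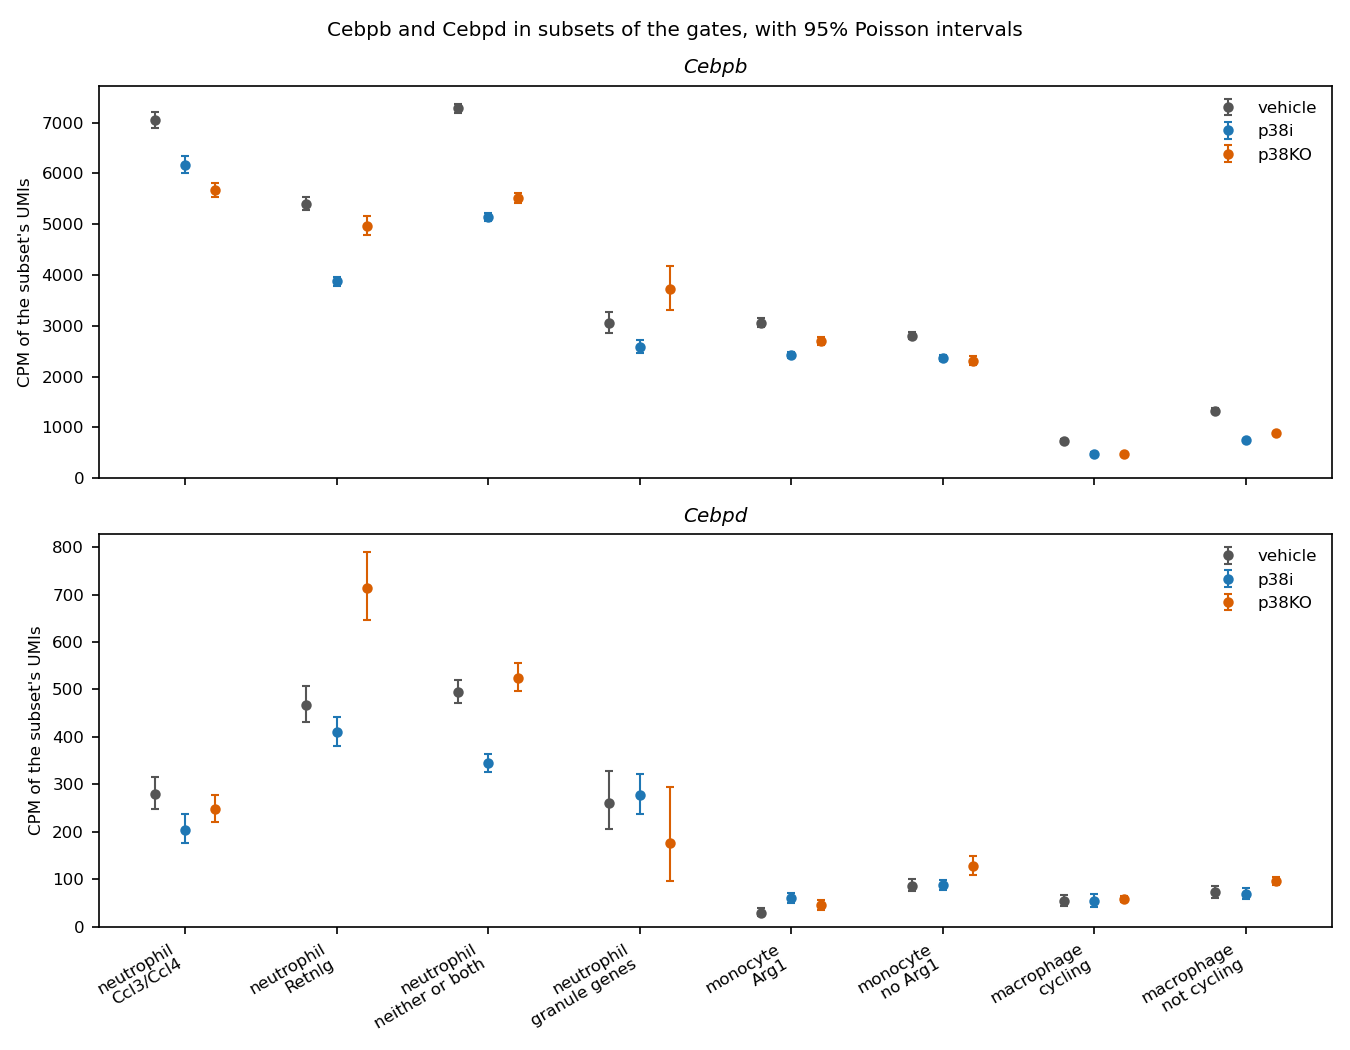
Cebpb and Cebpd levels (CPM of the division's summed UMIs, linear axes from 0) in divisions of the neutrophil, monocyte and macrophage gates for vehicle, p38i and p38KO, with 95% Poisson intervals. Cebpb is higher in Ccl3/Ccl4 than in Retnlg neutrophils, and Cebpd is lower.

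In the DC gate Irf8 separated the subsets. Cells with Xcr1 or Clec9a, markers of cDC1, numbered 21, 28 and 38 and held 2761, 2523 and 2766 CPM of Irf8 in vehicle, p38i and p38KO. Cells with at least 2 UMIs of Siglech, a plasmacytoid marker, numbered 10, 20 and 13 and held 3004, 2951 and 4011 CPM. Cells with Cd209a, a marker of cDC2, numbered 3, 8 and 4 and held 337, 379 and 157 CPM, so cDC1 exceeded them 8.19-, 6.65- and 17.6-fold. The 9 and 7 mature cells with Ccr7 and Fscn1 in p38i and p38KO lay between, at 1620.2 and 1240.4 CPM.

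Spi1 separated them differently. It was at 244, 324 and 336 CPM in cDC1, whereas plasmacytoid cells held 8 Spi1 counts of 88885 UMIs in vehicle and 9 counts each in p38i and p38KO (56.5 and 53.7 CPM). The cDC1 level was 2.71-, 5.73- and 6.25-fold higher. The cDC2 cells held 551, 428 and 353 CPM, on few cells. Cebpb in cDC1 was at 97.0, 70.8 and 33.6 CPM, and p38KO was called lower (-1.53). In plasmacytoid cells its level rested on 1 cell, which held 44 of 51 UMIs in vehicle and 48 of 60 in p38i, so no subset level is read from it.

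**Figure D5:**
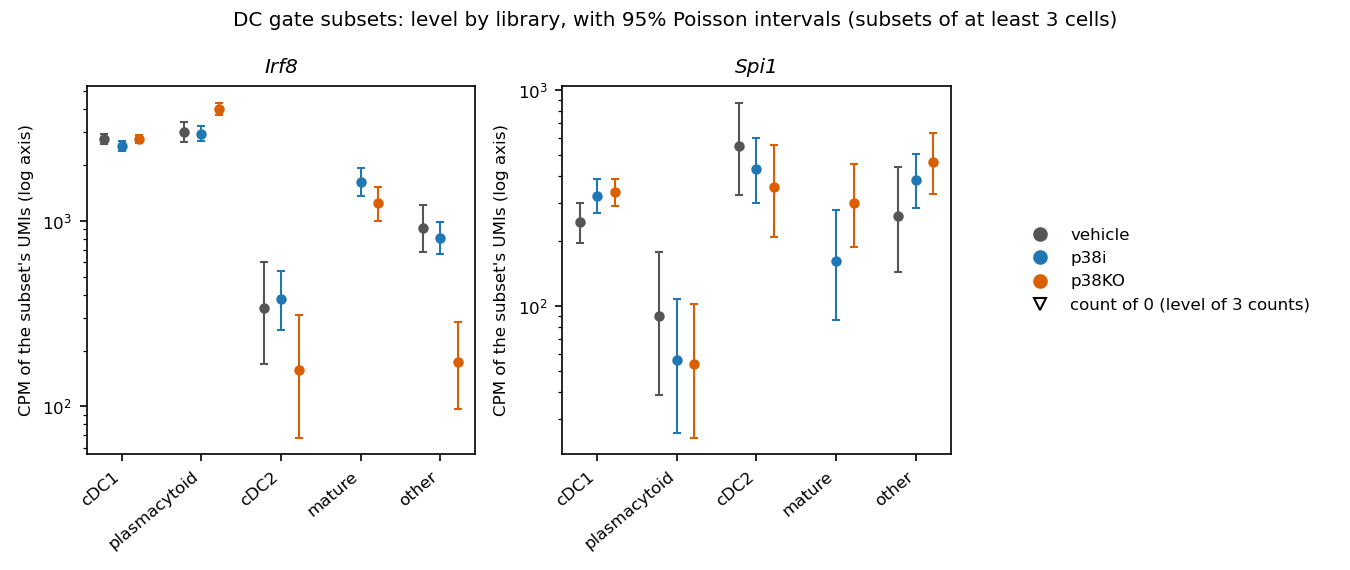
Irf8 and Spi1 levels (CPM of the subset's summed UMIs, log axis) in subsets of the DC gate with at least 3 cells for vehicle, p38i and p38KO, with 95% Poisson intervals. Irf8 is high in cDC1 and plasmacytoid cells and low in cDC2, whereas Spi1 is lowest in plasmacytoid cells.

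Genes known to act with or below the members were counted with the same call. As background, 9.07% of all genes tested were higher and 3.13% lower in p38i neutrophils, 3.62% and 2.97% in monocytes, 2.76% and 4.55% in macrophages and 5.45% and 3.51% in the DC gate. In p38KO the shares were 10.5% and 2.46% in neutrophils, 8.06% and 2.27% in monocytes, 9.47% and 3.13% in macrophages and 5.63% and 4.42% in the DC gate.

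Of the granule genes controlled by C/EBP factors, 3 of 9 tested were higher and 0 lower in p38i neutrophils, with Prtn3 (proteinase 3) at 1.55, Camp (cathelicidin) at 0.83 and Ngp at 0.58. In p38KO neutrophils 0 were higher and 6 lower, Camp being at 263 CPM in vehicle and 3.47 CPM in p38KO (-6.25), and Ngp at 458 and 34.9 CPM (-3.71). The list's median log2 ratio was 0.25 in p38i and -0.83 in p38KO, against 0.12 over all genes tested in either. Neutrophils with at least 2 UMIs of Ngp, Camp and Ltf were 79 in p38i and 18 in p38KO, so these sums follow few cells.

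Of the inflammatory genes bound by C/EBPβ and C/EBPδ, 2 of 12 tested were higher and 7 lower in p38i macrophages (median -0.65, against -0.01 over all genes), and 1 of 13 was higher and 2 lower in p38KO macrophages (median -0.11, against 0.07). The prostaglandin synthase gene Ptgs2 was lower in both (-1.86 and -1.02), as was the angiogenic factor Vegfa (-0.76 and -1.04), while Tnf was higher (1.22 and 1.44). In the macrophage gate the 8 neutrophil markers summed to 6835, 2475 and 4589 CPM in vehicle, p38i and p38KO. The 7 stress genes summed to 985, 587 and 737 CPM there. The part of either in these macrophage values was not tested. In monocytes 1 of 13 was higher and 5 lower in p38i and 2 were higher and 4 lower in p38KO, with the chemokine gene Cxcl2 at 1142, 529 and 652 CPM in vehicle, p38i and p38KO (-1.11 and -0.81). The acute-phase gene Saa3 differed in opposite directions, at 406, 1366 and 115 CPM in neutrophils (1.75 and -1.82) and 132, 202 and 30.2 CPM in monocytes (0.61 and -2.13). In neutrophils 2 of 12 were higher and 4 lower in p38i and 4 of 13 higher and 2 lower in p38KO. In the DC gate 5 of 7 and 5 of 8 were lower, among them Cxcl2 (-1.01 and -2.22).

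Of the receptor and phagocyte genes below PU.1, most were not called, as Spi1 itself was not. In neutrophils 1 and 2 of 15 were higher and 0 lower in p38i and p38KO, and in macrophages 0 were called in p38i while 2 were higher and 1 lower in p38KO. Csf1r, the receptor of the macrophage growth factor CSF-1, was higher in p38KO macrophages (502 and 768 CPM, 0.61), and Cd14, a lipopolysaccharide coreceptor, was lower in monocytes of both (1050.5, 741 and 592 CPM, -0.50 and -0.83). Csf2ra, a subunit of the GM-CSF receptor, was higher in the DC gate of both (0.56 and 0.62). Of the cDC1 genes below IRF8, 0 of 7 were higher and 1 lower in the p38i DC gate, and 4 of 7 were higher in p38KO, with Xcr1 at 318, 258 and 572 CPM (0.85 in p38KO) and the integrin gene Itgae at 142, 175 and 259.7 CPM (0.87). The cDC1 cells were 21 of 41, 28 of 78 and 38 of 71 cells of the gate.

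Relatives of the members varied by gate. Of the other C/EBP and partner leucine zipper factors, 3 of 14 and 3 of 15 were higher in p38i and p38KO neutrophils, with Maf at 1.60 and 0.63 and Batf3 at 1.43 and 2.06 on 7 to 22 counts. The neutrophil gate held 8 macrophage markers at a summed 294, 406 and 576 CPM in vehicle, p38i and p38KO, and their part in the Maf values was not tested. In macrophages 0 of these factors were higher and 3 of 16 lower in p38i and 2 were higher and 3 lower in p38KO, among them Nfil3 (-0.90 and -0.94) and Junb (-1.10 and -0.59). In the DC gate 6 of 13 were higher and 3 lower in p38i, against 8.95% of all genes called, and 0 of 10 were higher and 2 lower in p38KO. The higher ones included Batf on 4 and 19 counts (1.65), in a gate where the summed level of 8 macrophage markers was 161, 301 and 334 CPM, with 1 of the 8 (C1qb) at 0 in p38i and 0 of 8 in the others. Their part in these values was not tested. Atf3, a stress-induced factor that pairs with C/EBP proteins, was lower in monocytes (257, 128 and 179 CPM, -1.01 and -0.52) and in the DC gate (-1.39 and -4.02). Of the other interferon regulatory factors, Irf7 was lower in p38i and higher in p38KO in neutrophils (268, 151 and 402 CPM, -0.83 and 0.58) and monocytes (-0.76 and 0.58). Of the other KLF genes, Klf2 was lower in monocytes (-0.61 and -0.64) and Klf10 higher (0.85 and 0.85).

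Among regulators of C/EBP and of the granulocyte and monocyte choice, Id3 (0.69 and 0.97) and Runx2 (0.69 and 0.70) were higher in monocytes of p38i and p38KO. Trib1, which drives degradation of C/EBPα protein, was lower in the DC gate (-0.84 and -0.64). In neutrophils 3 of 16 of these genes were higher and 1 lower in p38i, and 3 were higher in p38KO. Of 9 other ETS factors tested in neutrophils, 0 were called in p38i and 2 were higher in p38KO, Elf4 (0.54) and Elk3 (0.72).

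The genes whose levels ran most like each member over the 15 values of gate by library were ranked by Pearson r of log2(CPM + 1) among 4694 genes. This is a description, since the values share libraries and gates. For Spi1 the closest was Tyrobp (r = 0.995), an adaptor of myeloid receptors, followed by Csf2ra (0.992). For Cebpb they were Lilrb4a and Tmem189 (0.990 each), the second overlapping Cebpb on the opposite strand and therefore uncertain. For Cebpd it was Cd33 (0.990), for Cebpa Ctss (0.991), for Irf8 Sdad1 (0.987), for Cebpe Gch1 (0.961) and for Klf4 the ETS factor gene Etv6 (0.953).

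Summed over all kept cells of a library, the members' levels also followed the makeup of the leukocytes. The macrophage gate took 17.5%, 14.0% and 40.3% of all UMIs in vehicle, p38i and p38KO. Cebpb was at 3017, 2471 and 1738 CPM in the whole libraries, log2 ratios of -0.29 and -0.80. With the vehicle level of each gate and of the ungated cells held and only their shares of UMIs changed, the ratios would be 0.05 and -0.36, leaving -0.34 and -0.44 to levels within them. The ungated cells took 21.8%, 20.9% and 18.9% of UMIs, and Cebpb in them was at -0.88 in p38KO. In this split, and in those below, a change of cell makeup within a gate or within the ungated cells counts as level. Cebpa was at 22.4, 23.7 and 43.6 CPM, and its p38KO ratio of 0.96 split into 0.55 from shares and 0.41 from levels. For Irf8 the p38KO ratio was 0.28, the value that the shares alone would give. For Klf4 the ratio of -0.66 split into -0.09 from shares and -0.57 from levels. The macrophage gate held 6.13%, 3.72% and 16.3% of all Cebpb UMIs, and neutrophils held 58.2%, 51.9% and 52.3%.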

How the data were processed

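The authors deposited UMI counts per gene and barcode, made with Cell Ranger (6.0.0 in the file headers). The submitters' processing notes also name mm10, R 4.2.1 and Seurat 5. The counts carry no normalization. Filters of 1500 UMIs, 300 genes and 20% mitochondrial counts left 12472 of 16143 barcodes, of which 9505 fell into a gate. No doublet caller was run. Counts were summed per gate and library and given as CPM with exact Poisson intervals. Log2 ratios had exact conditional binomial intervals, with 0.5 for a count of 0. Shares used cells thinned to 1500 UMIs. The calling script was tested on simulated data. Python 3.11.15, numpy 2.4.6, scipy 1.17.1 and matplotlib 3.10.9 were used. With 1 library per group no test across samples was possible. The members, gates and lists were chosen with earlier results of these data known.

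The gates were exclusive. T cells had Cd3e and no C1qa, Flt3, Csf3r or Cxcr2, macrophages at least 2 C1qa UMIs, DC at least 1 Flt3 UMI, and monocytes and neutrophils at least 2 UMIs of their genes and more than of the other pair. Named genes were the 7 members, gate and marker genes, up to 3 genes per list, gate and direction called in both comparisons (otherwise up to 2 called in one), and the 5 genes most like each member. Of these the text gives a selection, and Ccl3, Ccl4, Retnlg, Arg1, Mki67, Top2a, Siglech and Cd209a were used to divide gates. The result of 1 gene of the lists is not reported here.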

Additional observations from a re-analysis of the deposited data

Results flagged for a closer look

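Cebpb in p38i against vehicle was lower in the macrophage gate, with a log2 ratio of -0.69, and higher in the T gate, with a log2 ratio of 0.88. The difference between these gates was not tested, since each condition had 1 library, and the T-gate value turned negative in cells without Lyz2.

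Cells that fell into no gate entered the sums over whole libraries but no comparison by gate, and they also held members past the call. Cebpa was higher in the ungated cells of p38KO, with a log2 ratio of 0.68, and Cebpe was higher in the ungated cells of p38i, with a log2 ratio of 1.25. In p38KO, Cebpb (-0.88, on 6079 against 11019 counts) and Klf4 (-0.76) were lower in ungated cells. The share of all genes called in ungated cells is not given, so these calls have no background beside them. Ungated cells are of no defined type. After thinning, 70.5%, 74.4% and 53.3% of them carried a Cebpb UMI in vehicle, p38i and p38KO. The part of cell makeup in these ratios was not tested.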

How the results depend on the processing

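Each value was recomputed under 9 alternatives. Counted as values of a member in a myeloid gate, the calls in p38i were 3 of 26 as reported and 7 in cells positive for 1 gate only (Klf4 and Irf8 in macrophages and the DC gate among them), and those in p38KO were 4 of 26 as reported and 7 with the mean of per-cell CPM. The other alternatives gave 2 to 4 and 3 to 6. The share of all genes called under each alternative is not given, so these counts have no background beside them and say nothing particular about the members. The values called in all 9 were Klf4 in p38i monocytes (-0.74 to -0.55), Cebpb in p38KO macrophages (-0.91 to -0.55) and Irf8 in p38KO T cells (-1.04 to -0.69). None of the 9 was the check on stress genes, which was run for Cebpb and not for Klf4 or Irf8. Cebpb in p38i macrophages was lost in cells positive for 1 gate only (-0.46), and Cebpb (-1.11) and Klf4 (-2.38) in the p38KO DC gate were lost in thinned cells, which hold fewer counts. Cebpe in p38i neutrophils (0.32 to 0.84) and Cebpa in p38KO neutrophils (0.19 to 1.02) kept their direction and lost the call under several. Calls were also gained. Irf8 in p38KO neutrophils passed with stricter gates (0.52), thinned cells (0.91) and the deepest cells left out (0.86), the last also in p38i (0.72). Klf4 in p38KO macrophages passed with stricter gates (-0.58), median-ratio scaling (-0.56) and the deepest cells left out (-0.54). Cebpb in p38i neutrophils passed with stricter gates (-0.51) and median-ratio scaling (-0.58), and Cebpd there with the latter (-0.50). Thinning added Cebpd in p38KO monocytes (0.88) and macrophages (0.72). Over the 5 gates the mean of per-cell CPM added 8 calls and cells positive for 1 gate only added 7. Of 60 values, 23 moved outside the main interval in cells positive for 1 gate only and 23 in thinned cells. Besides these, 2 and 1 called values changed sign. In the T gate, Cebpb in p38i reversed to -0.42 in cells positive for 1 gate only and to -0.17 without Lyz2, and Spi1 to -0.80, -0.0535 in thinned cells and -1.23 without Lyz2, the last setting being chosen after seeing the data. After thinning, 6 p38i and 5 vehicle T cells had a Spi1 UMI, and without Lyz2 the counts were 4 and 9. Both are too few for the call, so no direction is read from them. No paired analysis was possible because each group has 1 library, and there was no replicate to leave out. Cebpa and Cebpe in the DC gate had too few counts to be tested.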
